A study of Rattus norvegicus with 24 samples.

Results

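The genes described here encode the secreted and membrane-bound proteases that cut the extracellular matrix and the proteins that hold them in check. They were taken by symbol, as every gene named Adamts, Adamtsl or Mmp with a number, plus Timp1 to Timp4. Within these families no gene was picked by its values, but the families were chosen with earlier results of these data known. This gave 50 of the 21425 genes listed: 19 Adamts, 5 Adamtsl, 22 Mmp and 4 Timp genes. Of these, 36 were detected well enough to be tested in each of the 2 experiments, 33 of them in both, and 11 were tested in neither.

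Matrix metalloproteinases (MMPs) are zinc-dependent enzymes made as inactive precursors, which are switched on when a propeptide is removed, often by furin or by another MMP at the cell surface. The ADAMTS enzymes are secreted relatives that carry thrombospondin repeats and trim proteoglycans, procollagens and microfibril proteins, while ADAMTS-like proteins keep the repeats but have lost the protease domain. TIMPs bind the active site of MMPs, and TIMP3 also blocks several ADAMTS enzymes. In the testis this system remodels the basement membrane around the seminiferous cords and the matrix between them.

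The libraries came from a culture model of the newborn testis, in which all cells of testes from wild-type Sprague Dawley rats of postnatal day 5 were grown together in Matrigel, a basement membrane extract, at 4.5 mg/mL. The gel held 5 M cells per mL, the medium had no serum and 50% of it was exchanged every 24 h. Cells of 1 litter made up the baseline experiment, sequenced fresh (called tissue) and after 3, 5 and 7 days of culture, without added hormone. Each of its groups has 3 technical replicates, so its p-values speak of technical spread alone. For the induction experiment, cultures from 3 litters were kept for 10 days and then given fresh medium with 50 mIU/mL luteinizing hormone (LH) and 20 mIU/mL follicle-stimulating hormone (FSH). Each litter gave 1 library, a pool of 3 cultures, at 0, 2, 12 and 48 h. Without untreated libraries at the later times, the hormones, the fresh medium and elapsed time cannot be told apart. Libraries from 6 h were not analysed here.

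Levels are in CPM, the reads of a gene relative to all reads of its library on a common scale. Libraries held 17.3 to 30.4 M reads in the baseline and 15.8 to 28.3 M in the induction experiment, so 1 read was worth 0.0329 to 0.0579 CPM and 0.0353 to 0.0633 CPM. Where 0 is listed, up to 3 reads remain possible by counting error, which is 0.0987 to 0.174 CPM in the baseline and 0.106 to 0.190 CPM in the induction libraries. CPM is not scaled to gene length, so levels are compared between samples and not between genes. Sets of 3 values are in the order of replicates 1 to 3 or litters 1 to 3, means are ± SD with n = 3 libraries, and changes are differences of log2(CPM + 1) ± SE, which understate the change of low genes. All adjusted p-values are from limma with Benjamini-Hochberg adjustment over all genes tested, two-sided, and a gene was called under 0.05. The defining Sertoli cell markers of the testis were present, with 8 of 8 detected in tissue and at day 7. Their summed levels were 2742 to 2812 CPM in tissue and 4149 to 4517 CPM at day 7. Of the 8, 4 were called higher at day 7 and 1 lower. Clu had means of 358 CPM in tissue and 1517 CPM at day 7, and Inha 826 and 410 CPM.

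Culture changed most of the matrix protease genes, and in both directions. At day 7, 18 of the 36 tested members were higher and 9 were lower than in tissue, which is 75% called beside 60% of all genes tested (28.5% rose and 31.4% fell). The median change of the members was 0.23 on the log2 scale, against -0.046 for all genes. At day 3, 15 rose and 8 fell, 63.9% of the members against 55.9% of all genes (29.1% up and 26.8% down), with medians of -0.025 and 0.016. At day 5, 14 rose and 10 fell, 66.7% against 59.9% (29.6% up and 30.3% down), with medians of -0.041 and -0.027. The members' share called was thus near that of all genes at days 3 and 5. The genes that rose at day 7 included all 5 Adamtsl genes, while 4 of the 7 proteoglycan-cutting ADAMTS genes fell.

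**Figure D1:**
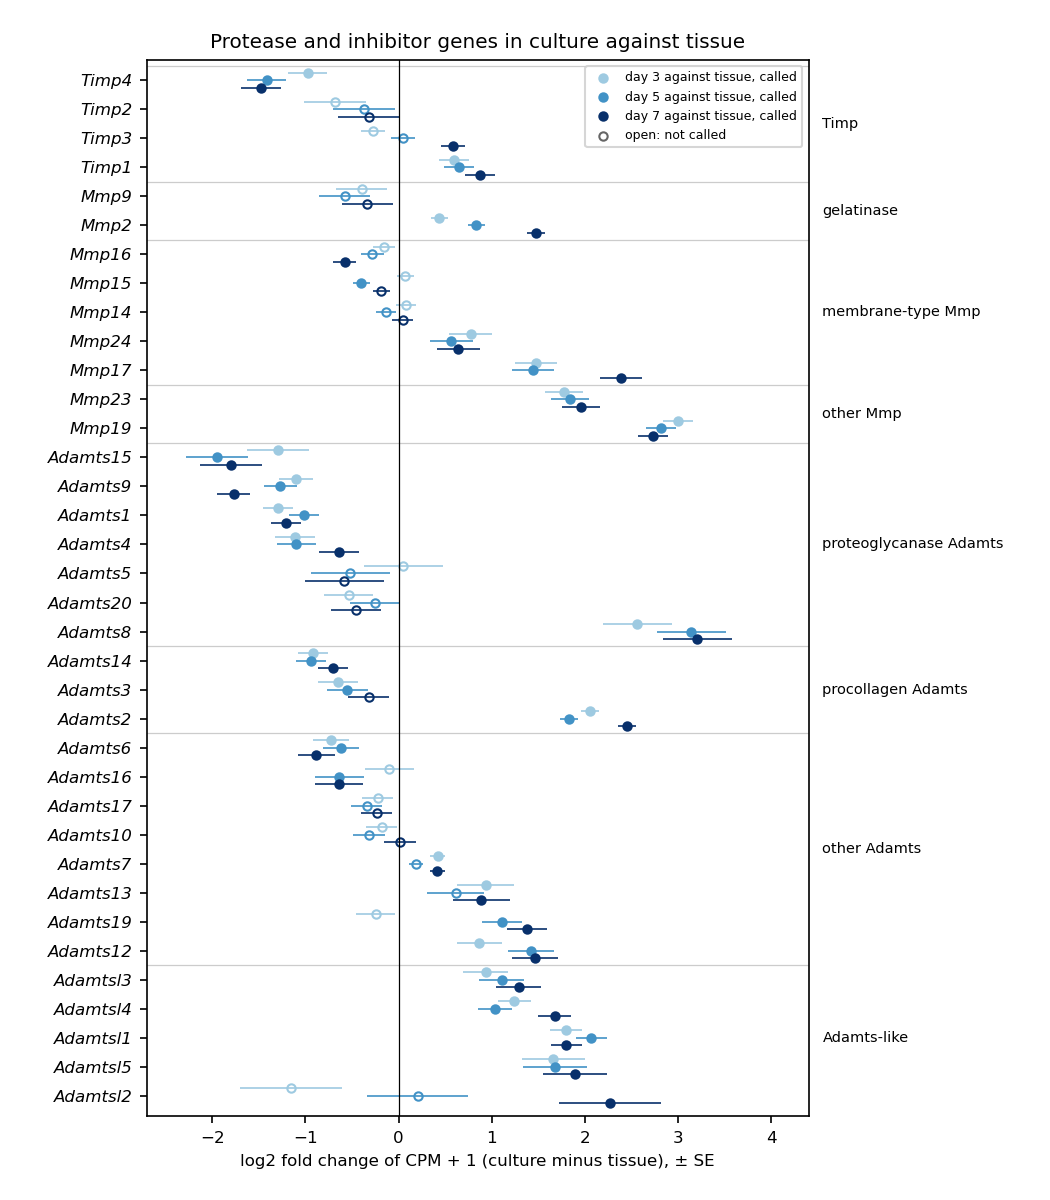
Change of log2(CPM + 1) from tissue to day 3, 5 and 7 of culture for members tested in the baseline experiment, grouped by role; points are fitted changes, bars ± SE (n = 3 libraries per group), filled where called and open where not. The Adamtsl genes lie to the right of 0 at day 7, Adamts8 stands at 3.21 and Adamts9 at -1.77.

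Of the inhibitors, Timp1 and Timp3 rose in culture and Timp4 fell. Timp1, the broadly acting inhibitor, went from 103, 90.1 and 94.6 CPM in the tissue libraries to 138, 139 and 159.6 CPM at day 3, 145, 133 and 177 CPM at day 5 and 167, 139 and 236 CPM at day 7. Each culture library was above each tissue library, with changes of 0.60 ± 0.16 (adjusted p = 0.00682) at day 3 and 0.87 ± 0.16 (adjusted p = 0.000406) at day 7. Timp3, the inhibitor that stays bound to the matrix, went from 171, 159.8 and 155 CPM in the tissue libraries to 132, 144 and 126 CPM at day 3, 168, 167 and 168 CPM at day 5 and 190.3, 283 and 268 CPM at day 7. All day 3 libraries were below tissue, but the change of -0.28 ± 0.13 (adjusted p = 0.0792) was not called, except without day 7 replicate 1 (adjusted p 0.0141). By day 7 it had risen, by 0.59 ± 0.13 (adjusted p = 0.00125). Timp4 went from 2.06, 2.25 and 2.24 CPM in the tissue libraries to 0.943, 0.295 and 0.687 CPM at day 3, 0.0579, 0.605 and 0 CPM at day 5 and 0.115, 0.217 and 0.102 CPM at day 7, a change of -1.48 ± 0.21 (adjusted p = 4.45e-05) at day 7. Its day 7 levels were near the 3-read limit, so it was all but undetected in the older cultures. Timp2, which together with MMP14 forms the complex that activates MMP2, was listed at 1.62, 1.01 and 1.58 CPM in tissue, 0.415, 1.33 and 0 CPM at day 3, 0.579, 0.484 and 1.69 CPM at day 5 and 1.72, 0.910 and 0.355 CPM at day 7. These values overlap, and the day 3 change of -0.68 ± 0.33 (adjusted p = 0.0965) was called only without day 3 replicate 2 (adjusted p 0.0217). Its baseline values are read with caution, because the same gene stood far higher in the induction libraries, as described further on.

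The collagen-cutting gelatinase Mmp2 rose steadily. It went from 239.8, 211 and 218 CPM in the tissue libraries to 294, 278 and 336 CPM at day 3, 403, 401 and 390.3 CPM at day 5 and 580.0, 653 and 629 CPM at day 7. The groups were ordered by day with no overlap, and the changes from tissue were 0.44 ± 0.09 (adjusted p = 0.00129), 0.84 ± 0.09 (adjusted p = 5.30e-06) and 1.47 ± 0.09 (adjusted p = 2.79e-08). Its membrane-bound activator Mmp14 did not follow. It was listed at 488, 499 and 484 CPM in tissue, 534, 473 and 551 CPM at day 3, 438, 523 and 391 CPM at day 5 and 524, 471 and 523 CPM at day 7, with overlapping groups and a change at day 7 of 0.04 ± 0.11 (adjusted p = 0.747). Mmp9, the other gelatinase, stayed between 0 and 1.28 CPM in the baseline libraries and was not called on any day. The neutrophil markers, genes of cells that store MMP8 and MMP9 in granules, summed to 14.8 to 15.9 CPM in tissue and 0.574 to 1.12 CPM at day 7. Of the 7, 3 were at 0 in tissue (Mpo, Elane and Camp) and 4 at day 7. Nearly all of the tissue sum was Csf3r, at 14.6 of a mean of 15.2 CPM. S100a8, S100a9 and Ncf1 averaged 0.044, 0.059 and 0.504 CPM in tissue, so the sum reads as 1 gene. The part of neutrophils in the Mmp9 levels was not tested.

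Among the membrane-type enzymes Mmp17, which is held by a lipid anchor, rose and Mmp16 fell. Mmp17 went from 3.95, 2.71 and 3.91 CPM in the tissue libraries to 7.47, 13.8 and 14.6 CPM at day 3, 11.6, 9.36 and 12.9 CPM at day 5 and 19.5, 24.9 and 23.2 CPM at day 7. No culture library overlapped tissue, and the change was 1.48 ± 0.23 (adjusted p = 9.31e-05) at day 3 and 2.39 ± 0.23 (adjusted p = 1.09e-06) at day 7. Mmp16, anchored by a transmembrane segment, went from 36.5, 42.7 and 36.4 CPM in the tissue libraries to 34.9, 38.3 and 30.5 CPM at day 3, 34.0, 28.0 and 32.4 CPM at day 5 and 24.8, 27.4 and 24.1 CPM at day 7. It was lower than tissue at day 7, by -0.58 ± 0.12 (adjusted p = 0.00108), and was not called at day 3 or, except without day 3 replicate 3 (adjusted p 0.0476), at day 5. Mmp15 was called at day 5 only, with a change of -0.40 ± 0.09 (adjusted p = 0.00217), against -0.19 ± 0.09 (adjusted p = 0.0994) at day 7. Mmp24 was called higher at days 3, 5 and 7, at day 7 with 0.64 ± 0.23 (adjusted p = 0.0279). The day 7 call was lost when any 1 of 5 libraries was left out (adjusted p 0.0525 to 0.0796), namely tissue replicate 1, 2 or 3 or day 7 replicate 1 or 2. The day 5 call was lost without any 1 of 9 libraries (0.0574 to 0.189), and the day 3 call only without day 3 replicate 3 (0.0561).

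Among the Mmp genes the largest rise was that of Mmp19, a widely expressed enzyme that cuts basement membrane proteins. It went from 3.95, 2.52 and 3.72 CPM in the tissue libraries to 39.1, 30.5 and 32.3 CPM at day 3, 28.4, 28.4 and 32.2 CPM at day 5 and 29.9, 24.1 and 29.9 CPM at day 7. Its group mean was highest at day 3, with a change of 3.00 ± 0.16 (adjusted p = 7.31e-09) there and 2.73 ± 0.16 (adjusted p = 1.22e-08) at day 7. Mmp23, an enzyme anchored by its own propeptide and described from reproductive tissues, went from 18.5, 19.3 and 15.6 CPM in the tissue libraries to 56.2, 57.6 and 78.0 CPM at day 3, 58.5, 57.2 and 86.2 CPM at day 5 and 73.0, 54.1 and 93.7 CPM at day 7. Its culture levels did not overlap tissue on any day, with a change of 1.78 ± 0.20 (adjusted p = 8.08e-06) at day 3 and 1.96 ± 0.20 (adjusted p = 2.63e-06) at day 7.

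**Figure D2:**
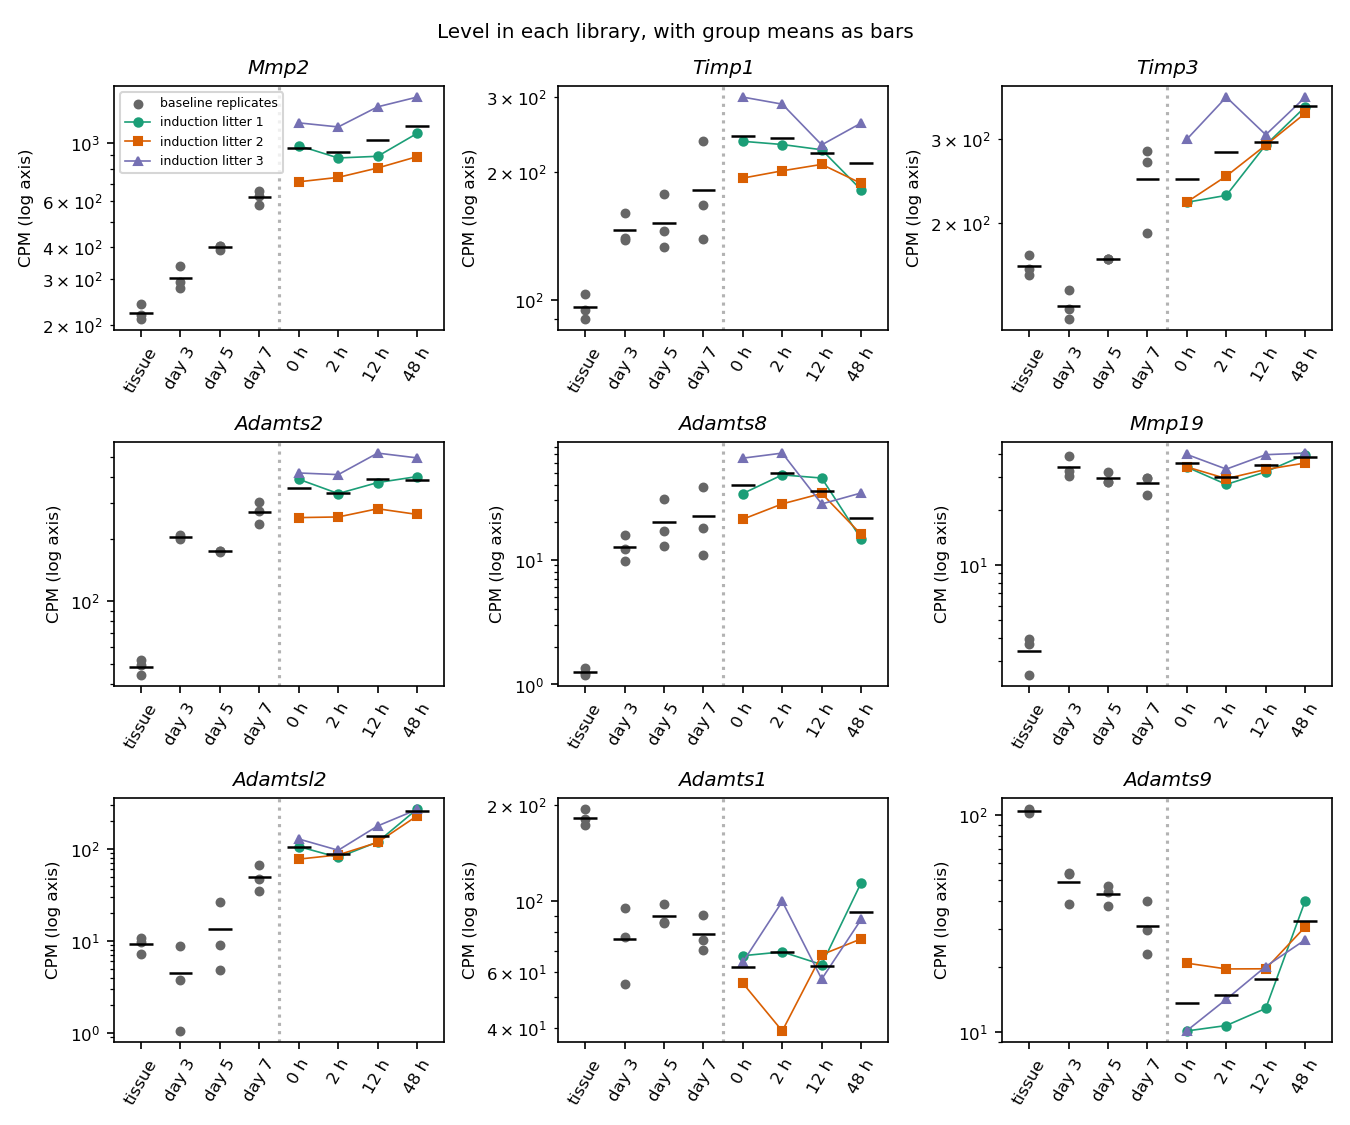
Level in each library (CPM, log axis) of 9 members across the 4 baseline groups, left of the dotted line, and the 4 induction times, right of it; grey points are technical replicates, coloured points joined by lines are litters and black bars are group means. Mmp2 climbs from 223 CPM in tissue to 621 CPM at day 7, Adamts9 drops from 105 to 30.9 CPM and Adamtsl2 climbs in both experiments.

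The genes of the interstitial collagenases, of the stromelysins other than Mmp11 and of matrilysin stayed low in all 24 libraries. Mmp1, Mmp8 and Mmp13 (collagenases), Mmp3 and Mmp10 (stromelysins) and Mmp7 (matrilysin) reached at most 1.30 CPM, the highest value being that of Mmp3 at 48 h in litter 3. Mmp10, Mmp13, Mmp20 and Mmp27 never had more than 3 reads in a library, and Mmp20, the tooth enamel enzyme, and Mmp27 had 0. None of these genes was tested in the baseline experiment. The same held for Mmp21 and Mmp1b, at 0 to 0.175 CPM and 0 to 0.370 CPM in the baseline libraries, and for Adamts18, with reads in day 7 replicate 2 alone of all 24 libraries (0.173 CPM). Several lie side by side on rat chromosome 8, in the cluster of MMP genes.

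That cluster is known for the AP-1 element, a site for Fos and Jun dimers shortly before the start of transcription, through which these genes respond to growth factors and cytokines. The element TGANTCA (its reverse complement has the same form) was searched on both strands in the RefSeq promoters of build GRCr8, which run from 250 bases before to 50 after each start. Of the 50 members, 39 had a promoter in that set. The element was in 7 of the 39 (17.9%), against 7.33% of 33469 promoters, and all 7 were genes of the chromosome 8 cluster. Not every gene of the cluster had it: the promoters of Mmp1b, Mmp8 and Mmp27 held no match. The 40 bases around the match nearest the start are shown 5′ to 3′ on the plus strand, with the element in capitals, to show it in place.
Mmp13, chr8:12782747-12782786: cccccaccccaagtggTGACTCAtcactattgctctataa
Mmp12, chr8:12866549-12866588: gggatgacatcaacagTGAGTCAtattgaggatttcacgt
Mmp3, chr8:12925194-12925233: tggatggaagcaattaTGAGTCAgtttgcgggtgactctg
Mmp1, chr8:12943353-12943392: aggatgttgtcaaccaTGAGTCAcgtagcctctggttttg
Mmp10, chr8:12974630-12974669: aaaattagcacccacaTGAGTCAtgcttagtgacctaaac
Mmp20, chr8:13074167-13074206: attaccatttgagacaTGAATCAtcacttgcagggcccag
Mmp7, chr8:13132947-13132986: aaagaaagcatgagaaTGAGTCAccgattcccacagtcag
The matches began 66 bases before the start in Mmp13, 87 in Mmp12, 71 in Mmp3, 84 in Mmp1, 61 in Mmp10, 96 in Mmp20 and 80 in Mmp7, and Mmp1 holds another 242 bases before its start. A match is a description of the letters and not of binding.

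Among the ADAMTS proteoglycanases, enzymes that cut aggrecan and versican, 4 of 7 fell by day 7 and 1 rose. Adamts1, which cleaves versican and is known as a gene of the ovulating follicle, went from 194, 173 and 180.1 CPM in the tissue libraries to 95.3, 77.1 and 55.1 CPM at day 3, 85.3, 86.2 and 97.9 CPM at day 5 and 75.7, 70.2 and 90.6 CPM at day 7. All culture libraries were below all tissue libraries, with changes of -1.29 ± 0.16 (adjusted p = 1.72e-05) at day 3 and -1.21 ± 0.16 (adjusted p = 2.47e-05) at day 7. Adamts9, a versican-cutting enzyme widely used in development, went from 106, 103 and 107 CPM in the tissue libraries to 53.8, 54.1 and 39.1 CPM at day 3, 47.4, 44.3 and 38.0 CPM at day 5 and 29.5, 40.4 and 22.8 CPM at day 7. Its level was lower on each later day by the means, with changes of -1.10 ± 0.18 (adjusted p = 0.000159) and -1.77 ± 0.18 (adjusted p = 1.93e-06) at days 3 and 7. The step between these days was not called, at -0.67 ± 0.18 (adjusted p = 0.0549), although it was when any 1 of 3 libraries was left out: day 3 replicate 3, day 5 replicate 3 or day 7 replicate 2 (adjusted p 0.0123 to 0.039). It was also called by DESeq2 on recovered reads (adjusted p = 0.0286) and with the replicate number as a block (adjusted p = 0.0275).

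Adamts15, an aggrecanase, went from 7.72, 4.82 and 5.79 CPM in the tissue libraries to 1.77, 2.14 and 1.69 CPM at day 3, 0.985, 1.86 and 0.0529 CPM at day 5 and 2.07, 0.607 and 0.660 CPM at day 7, a change of -1.80 ± 0.33 (adjusted p = 0.000383) at day 7 with no overlap. Adamts4, the first aggrecanase described, went from 16.8, 13.5 and 12.0 CPM in the tissue libraries to 6.00, 5.60 and 6.24 CPM at day 3, 7.59, 4.07 and 6.88 CPM at day 5 and 6.83, 10.5 and 8.93 CPM at day 7. Its change was -1.11 ± 0.21 (adjusted p = 0.000576) at day 3 and -0.64 ± 0.21 (adjusted p = 0.0188) at day 7, and the day 7 call was lost without tissue replicate 1 or day 7 replicate 1 (adjusted p 0.0841 to 0.0862). Adamts5, the other main aggrecanase, and Adamts20 were not called on any day, with day 7 changes of -0.58 ± 0.42 (adjusted p = 0.252) and -0.46 ± 0.27 (adjusted p = 0.155), the latter called only without day 7 replicate 2 (adjusted p 0.0354). Adamts8 went the other way, from 1.23, 1.19 and 1.35 CPM in the tissue libraries to 9.77, 12.1 and 15.8 CPM at day 3, 12.8, 16.9 and 30.8 CPM at day 5 and 18.0, 11.0 and 38.6 CPM at day 7. Even its lowest culture library was above its highest tissue library, and it had the largest rise of all members at day 7, 3.21 ± 0.37 (adjusted p = 6.93e-06). The day 7 libraries spread widely, at 22.5 ± 14.4 CPM. Reads were not assigned to a strand, so the counts of members that overlap another gene, as Adamts4 does in the RefSeq annotation, are uncertain.

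The promoter of Adamts1 is shown, 5′ to 3′ along the gene (build GRCr8, minus strand), as that of an abundant member that fell, with its GC boxes (GGGCGG, searched on both strands) and TATA box (TATAAA, searched on both strands) in capitals.
Adamts1, chr11:38427335-38427634: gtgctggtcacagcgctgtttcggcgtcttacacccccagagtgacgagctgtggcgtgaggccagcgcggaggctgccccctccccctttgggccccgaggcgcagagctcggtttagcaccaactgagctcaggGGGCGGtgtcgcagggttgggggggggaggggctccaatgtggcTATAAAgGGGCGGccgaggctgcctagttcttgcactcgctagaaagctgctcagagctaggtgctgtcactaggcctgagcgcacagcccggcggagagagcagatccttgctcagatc
Its GC boxes begin 114 and 63 bases and its TATA box 70 bases before the start. The GC box was in 48.7% of the 39 member promoters and 33.06% of all, the TATA box in 33.3% and 14.22%, and the cyclic AMP element TGACGTCA in 0 members and 1.83% of all.

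The procollagen aminopropeptidases, which trim fibrillar procollagens, split. Adamts2, the main enzyme for procollagen I, went from 49.1, 44.1 and 51.9 CPM in the tissue libraries to 199.7, 204 and 210.1 CPM at day 3, 176, 174 and 173 CPM at day 5 and 237, 274 and 301 CPM at day 7. The gap between tissue and culture was wide and the replicates were close, with changes of 2.06 ± 0.10 (adjusted p = 2.68e-09) at day 3 and 2.46 ± 0.10 (adjusted p = 3.90e-10) at day 7. Adamts14, its close relative, went from 70.6, 67.0 and 65.6 CPM in the tissue libraries to 33.8, 34.8 and 37.8 CPM at day 3, 40.8, 33.0 and 31.1 CPM at day 5 and 41.7, 31.3 and 53.5 CPM at day 7. It was lower in every culture library, by -0.92 ± 0.16 (adjusted p = 0.000312) at day 3 and -0.70 ± 0.16 (adjusted p = 0.002) at day 7. Adamts3, which chiefly processes the lymphatic growth factor VEGFC, was called lower at day 3, with -0.65 ± 0.22 (adjusted p = 0.0216), and at day 5, with -0.55 ± 0.22 (adjusted p = 0.0432), and not at day 7, with -0.32 ± 0.22 (adjusted p = 0.221). The day 3 call was lost without tissue replicate 2 or 3 or day 3 replicate 3 (adjusted p 0.0603 to 0.102). At day 5 it was no longer called on omitting any single tissue or day 5 replicate, or day 7 replicate 2 (adjusted p 0.0516 to 0.13).

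Of 8 other ADAMTS enzymes tested, 4 rose and 2 fell by day 7. Adamts12, which cuts cartilage oligomeric matrix protein, went from 58.6, 53.8 and 56.2 CPM in the tissue libraries to 119.8, 112 and 82.4 CPM at day 3, 140.5, 113 and 221 CPM at day 5 and 131, 129 and 228 CPM at day 7, and Adamts7, its relative, had a small change of 0.42 ± 0.08 (adjusted p = 0.000557). The rise of Adamts12 was 1.47 ± 0.24 (adjusted p = 0.000163) at day 7, with no overlap. Adamts19, an enzyme noted in embryonic gonads of the mouse, went from 3.68, 2.43 and 3.49 CPM in the tissue libraries to 1.85, 3.10 and 2.70 CPM at day 3, 7.71, 6.74 and 9.74 CPM at day 5 and 7.57, 11.9 and 10.5 CPM at day 7. It overlapped tissue at day 3, with a change of -0.25 ± 0.21 (adjusted p = 0.337), and was above it from day 5, with 1.38 ± 0.21 (adjusted p = 8.20e-05) at day 7. Adamts6 went from 9.08, 10.2 and 7.89 CPM in the tissue libraries to 5.24, 6.08 and 4.02 CPM at day 3, 4.06, 5.57 and 7.30 CPM at day 5 and 4.65, 4.34 and 4.31 CPM at day 7, a change of -0.88 ± 0.20 (adjusted p = 0.00154). Adamts10, which acts on fibrillin microfibrils, and Adamts17 were not called at day 7, at 0.01 ± 0.17 (adjusted p = 0.947) and -0.24 ± 0.17 (adjusted p = 0.236). Adamts16 had a day 7 change of -0.64 ± 0.26 (adjusted p = 0.0491) and Adamts13, which cleaves von Willebrand factor, one of 0.89 ± 0.31 (adjusted p = 0.0229). Their calls were lost at day 7 on leaving out any 1 of 7 and 3 libraries. For Adamts16 these were each tissue replicate, replicate 1 of days 3, 5 and 7, and day 7 replicate 3 (adjusted p 0.0586 to 0.202), and for Adamts13 tissue replicates 1 and 2 and day 7 replicate 1 (0.0542 to 0.104). The Adamts16 call was also lost without a filter, with TMM or size factor scaling, and by edgeR and DESeq2 (adjusted p 0.0566 to 0.0926).

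All 5 Adamtsl genes were called higher at day 7 than in tissue. Papln, an ADAMTS-like gene that the symbol rule leaves out, fell, as given further on. Adamtsl1 went from 5.35, 4.82 and 5.03 CPM in the tissue libraries to 23.3, 22.6 and 15.3 CPM at day 3, 22.2, 22.6 and 29.2 CPM at day 5 and 21.5, 18.1 and 20.9 CPM at day 7, a change of 1.80 ± 0.17 (adjusted p = 9.63e-07). Adamtsl4, whose product promotes fibrillin microfibril assembly, went from 3.77, 4.04 and 2.76 CPM in the tissue libraries to 9.89, 8.18 and 11.0 CPM at day 3, 8.46, 8.79 and 7.41 CPM at day 5 and 12.9, 11.1 and 16.6 CPM at day 7, a change of 1.68 ± 0.18 (adjusted p = 3.47e-06). Both were up from day 3 on without overlap. Adamtsl5 went from 1.10, 0.550 and 0.987 CPM in the tissue libraries to 5.55, 2.95 and 6.93 CPM at day 3, 4.35, 9.88 and 2.65 CPM at day 5 and 5.97, 5.25 and 6.60 CPM at day 7, a change of 1.89 ± 0.34 (adjusted p = 0.000317). Adamtsl3 went from 1.89, 1.42 and 0.526 CPM in the tissue libraries to 4.11, 3.32 and 2.38 CPM at day 3, 3.13, 4.36 and 3.81 CPM at day 5 and 4.82, 3.56 and 4.87 CPM at day 7, a change of 1.29 ± 0.24 (adjusted p = 0.000418). They too were above tissue in every culture library.

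Adamtsl2, which binds fibrillin and the latent TGF-beta binding protein LTBP1, followed another course. It went from 9.65, 7.29 and 10.9 CPM in the tissue libraries to 1.06, 3.76 and 8.78 CPM at day 3, 9.04, 4.80 and 26.5 CPM at day 5 and 34.7, 47.1 and 66.9 CPM at day 7. The day 3 mean lay below tissue, with overlap and a change of -1.15 ± 0.55 (adjusted p = 0.0888) that was not called. It was called without day 3 replicate 3 or day 5 replicate 3 (adjusted p 0.0157 to 0.0379) and with the replicate block (adjusted p = 0.0242). By day 7 every library was above tissue, with a change of 2.27 ± 0.55 (adjusted p = 0.0028) and a spread of 49.5 ± 16.2 CPM. Its promoter (build GRCr8, plus strand, same capitals as above) is shown because it was called higher both at day 7 of culture and at 48 h after hormone.
Adamtsl2, chr3:30802450-30802749: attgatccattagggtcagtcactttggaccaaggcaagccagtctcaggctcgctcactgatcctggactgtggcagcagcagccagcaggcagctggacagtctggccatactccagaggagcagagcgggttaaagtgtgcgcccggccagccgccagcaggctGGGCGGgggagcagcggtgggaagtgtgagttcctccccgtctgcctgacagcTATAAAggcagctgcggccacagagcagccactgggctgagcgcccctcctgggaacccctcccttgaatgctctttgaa
The GC box begins 83 bases and the TATA box 30 bases before the start.

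Within culture, 6 members were higher at day 7 than at day 3 and 0 were lower, 16.7% of the members against 3.79% of all genes (1.36% up and 2.44% down). The called members were Adamtsl2, with 3.42 ± 0.55 (adjusted p = 0.0047), Adamts19, with 1.63 ± 0.21 (adjusted p = 0.00173), Mmp2, with 1.04 ± 0.09 (adjusted p = 9.97e-05), Timp3, with 0.86 ± 0.13 (adjusted p = 0.0031), Mmp17, with 0.91 ± 0.23 (adjusted p = 0.0416), and Adamts2, with 0.40 ± 0.10 (adjusted p = 0.0378). The calls of Mmp17 and Adamts2 were each lost without any 1 of 8 libraries (adjusted p 0.0547 to 0.158 and 0.0553 to 0.179). For both these were tissue replicates 1 and 3, day 3 replicates 1 and 2, day 5 replicate 1 and day 7 replicates 2 and 3, with day 7 replicate 1 for Mmp17 and day 3 replicate 3 for Adamts2. Leaving out 1 library gave 4 to 7 calls in all. Adamts9 was called lower under some of the alternatives, as given above.

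Markers of several cell types shifted over the same days. Summed fibroblast markers stood at 4053 to 4864 CPM in tissue and 12376 to 17108 CPM at day 7, with 3 of 6 called higher. Most of this sum was Col1a1 and Col3a1, with means of 8344 and 5389 of 14187 CPM at day 7. Dcn averaged 120 CPM in tissue and 136 CPM at day 7. Peritubular myoid markers, of the contractile cells around the cords, stood at 1336 to 1505 and 3884 to 4652 CPM, with 5 of 6 higher. Germ cell markers fell from 234 to 257 CPM to 42.9 to 67.2 CPM, with 6 of 7 lower. Summed mesothelial markers went from 0.789 to 1.61 CPM to 67.5 to 168 CPM, with both tested markers higher of 5 listed. Nearly all of the day 7 sum was Lrrn4, so the sum reads as 1 gene. Upk1b averaged 0.733 CPM in tissue and 5.33 CPM at day 7, Msln 0.088 and 0.034 CPM and Upk3b 0.045 and 0.067 CPM. Krt19 was not among the genes measured. Macrophage markers went from 47.2 to 58.5 CPM to 19.6 to 21.8 CPM. Of 6 tested, 3 were lower and 1 higher, and Cd163 was at 0 at day 7. In such bulk libraries fewer cells of a type and less RNA per cell cannot be told apart, and the part of these shifts in the protease levels was not tested.

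Other genes of the proteolytic system, its substrates and its regulators moved as well. Their lists, too, were chosen with earlier results of these data known. Of 41 tested other genes of matrix proteolysis, 27 rose and 8 fell at day 7 (85.4% called, against 60% of all genes). The largest rises were Adam33, a membrane protease of mesenchymal cells, with 4.28 ± 0.24 (adjusted p = 8.23e-09), A2m, the protease trap alpha-2-macroglobulin, with 3.54 ± 0.31 (adjusted p = 4.85e-07), and Prss23, with 2.85 ± 0.19 (adjusted p = 4.23e-08). Papln, an ADAMTS-like matrix protein named papilin, fell from 244 ± 5.88 to 7.78 ± 3.28 CPM, a log2 change of -4.89 ± 0.38 (adjusted p = 1.75e-07). Pappa, the protease of IGF-binding proteins, and Plau, the plasminogen activator urokinase, also fell, by the log2 changes -1.15 ± 0.30 (adjusted p = 0.00531) and -0.82 ± 0.15 (adjusted p = 0.000475). Of 25 tested substrates, 18 rose and 3 fell. Bgn, biglycan, rose by 3.23 ± 0.15 (adjusted p = 2.23e-09), Fn1, fibronectin, by 2.89 ± 0.25 (adjusted p = 5.57e-07) and Ltbp1, which binds the product of Adamtsl2, by 2.56 ± 0.33 (adjusted p = 1.78e-05). Vcan, versican, a substrate of the proteoglycanases, rose by 1.39 ± 0.29 (adjusted p = 0.001). Of the 7 proteoglycanase genes 4 fell and 1, Adamts8, rose, and a link to Vcan was not tested. The genes of 2 other substrates fell: Reln, reelin, with -2.51 ± 0.32 (adjusted p = 1.46e-05), and Vwf, the substrate of ADAMTS13, with -1.24 ± 0.24 (adjusted p = 0.000514). Col1a1 and Col3a1 are in both the substrate list and the fibroblast list.

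Of 12 tested genes in a list of transcription factors known to act on MMP genes, 6 fell and 2 rose at day 7, 66.7% called and near the 60% of all genes. Fos, an AP-1 subunit induced within minutes of a stimulus, went from 1330.4 ± 13.4 to 8.43 ± 2.21 CPM, a log2 change of -7.17 ± 0.21 (adjusted p = 5.50e-11). Fosb, its relative, went from 1179 ± 40.1 to 7.43 ± 1.96 CPM, a log2 change of -7.15 ± 0.18 (adjusted p = 3.13e-11). Jun, their partner, fell by the log2 change -3.85 ± 0.12 (adjusted p = 7.15e-11) too, while Runx1, a factor of blood and mesenchymal cells, had 3.38 ± 0.19 (adjusted p = 1.16e-08). Egr1, a zinc finger factor of the same early response as Fos, had a change of -4.01 ± 0.24 (adjusted p = 1.48e-08).

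The baseline and induction experiments were not compared by test, but 3 members stood so far apart that their counting is in doubt. Mmp11, stromelysin-3, had a mean of 0.0102 CPM over the 12 baseline libraries and 120 CPM over the 12 induction libraries, from 3 and 28469 reads. Mmp28, epilysin, had 0 and 28.1 CPM, from 0 and 7055 reads. Timp2 had 0.975 and 861 CPM, from 266 and 211750 reads. No induction library of these genes came near any baseline library. Such a split, over 20 mean CPM in 1 experiment and under 1 in the other, was found in 6% of the members and in 1.02% of all genes, where 70 were higher in the induction and 148 in the baseline experiment. Timp2 met it narrowly: without day 3 replicate 1 or 3, day 5 replicate 1 or 2 or day 7 replicate 3 its baseline mean passed 1 CPM and 2 members were left.

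Short of that rule, Adamts13 had means of 1.199 and 14.3 CPM and Mmp12, the macrophage elastase, 0.0792 and 2.68 CPM. These are named after their values were seen. In the RefSeq annotation (GRCr8, used for names and neighbours only) 21 of the 50 members overlap another gene and 11 a protein-coding one, among them Timp2 with Cep295nl, Mmp11 with Chchd10, Mmp28 with C10h17orf50 and Adamts13 with Cacfd1. Cacfd1 itself had means of 31.5 CPM in the baseline and 0.295 CPM in the induction libraries. Over all genes, 32.8% of 195 split genes overlap a protein-coding gene, against 20.4% of 8245 genes above 20 CPM in either experiment. The library kit does not mark strand, and the part of the counting annotation in these differences was not tested. Levels of these members are therefore read only within an experiment.

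**Figure D3:**
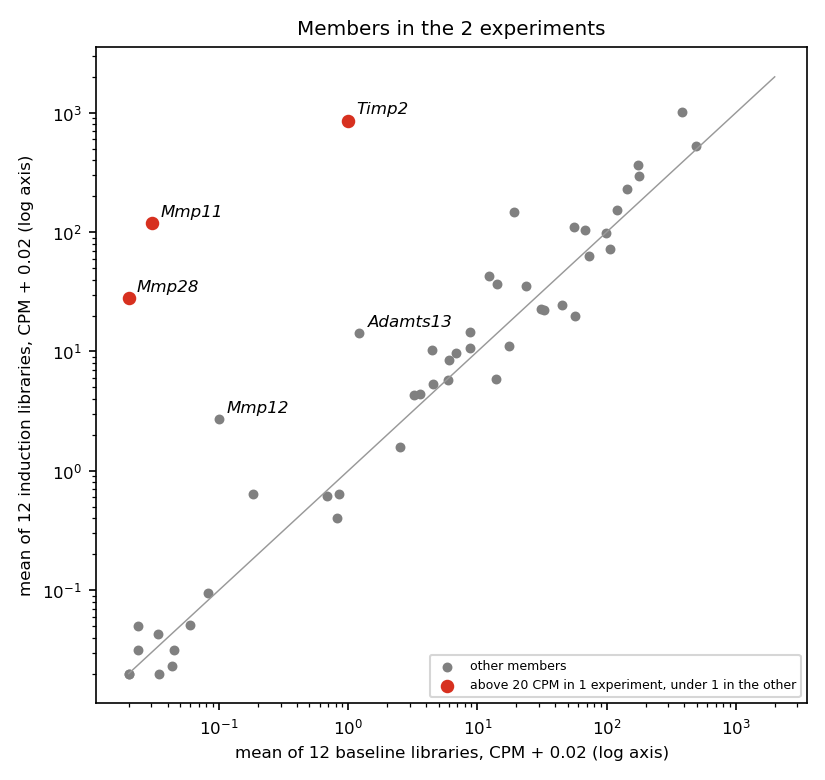
Mean level of each member over the 12 baseline libraries (x axis) and the 12 induction libraries (y axis), both as CPM + 0.02 on log axes; red points are the 3 members above 20 CPM in 1 experiment and under 1 in the other, and the line marks equal levels. Timp2, Mmp11 and Mmp28 lie far above the line, while most members lie near it.

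After LH and FSH, changes from 0 h were called at 48 h and not before. At 2 h and at 12 h after hormone 0 of 36 tested members were called, beside 0.618% and 0% of all genes. At unadjusted p under 0.05 there were 4 members at each time, and edgeR and DESeq2 on the recovered reads called 0 members at both times. At 48 h, 5 members were higher and 3 were lower than at 0 h, 22.2% of the members against 4.35% of all genes (2.22% up and 2.13% down), with medians of 0.112 and -0.034 on the log2 scale. Litter was a block in these fits, and without it 3 members were called, Adamtsl2, Mmp11 and Adamts15. Leaving out 1 library gave 2 to 10 calls, so the number rests on single libraries.

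Adamtsl2 had the lowest adjusted p of the members at 48 h. It was listed at 106, 77.5 and 128 CPM at 0 h, 80.9, 86.2 and 96.8 CPM at 2 h, 119, 118 and 178 CPM at 12 h and 271, 229 and 268 CPM at 48 h. The 48 h libraries of all 3 litters were above all earlier libraries, and the change was 1.32 ± 0.12 (adjusted p = 0.000964) with litter as a block and had an adjusted p of 0.0142 without it. From 2 h to 12 h it was 0.62 ± 0.12 (adjusted p = 0.0301), the only member called of 36 in that interval (2.96% of all genes, with 1.17% up), and from 12 h to 48 h 0.91 ± 0.12 (adjusted p = 0.0199). The 2 h to 12 h call was lost without any 1 of 4 libraries (adjusted p 0.0817 to 0.111), namely litters 1 and 3 at 2 h and litters 2 and 3 at 12 h. The 12 h to 48 h call was lost without any 1 of 3 (0.0608 to 0.143), namely litters 1 and 2 at 12 h and litter 1 at 48 h.

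Mmp11, an enzyme activated by furin inside the cell and known from tissue remodelling, was listed at 93.6, 108 and 106 CPM at 0 h, 86.3, 102 and 104 CPM at 2 h, 101.3, 113 and 137 CPM at 12 h and 168, 153 and 164 CPM at 48 h. All litters were highest at 48 h, with a change from 0 h of 0.66 ± 0.08 (adjusted p = 0.00304) and an adjusted p of 0.032 without the block. Timp3 was listed at 221, 221 and 299.5 CPM at 0 h, 228, 251 and 367 CPM at 2 h, 291, 291 and 306 CPM at 12 h and 350.2, 339 and 367 CPM at 48 h. It was higher at 48 h than at 0 h in all 3 litters, by 0.52 ± 0.11 (adjusted p = 0.0245), and litter 3 at 2 h already equalled its 48 h level. Without the block its adjusted p was 0.207, and the call was lost without any 1 of 5 libraries (0.0574 to 0.0917), namely litters 1, 2 and 3 at 0 h and litters 1 and 2 at 48 h.

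Both proteoglycanases that rose at 48 h had fallen in the baseline cultures. Adamts9 was listed at 10.1, 20.8 and 10.1 CPM at 0 h, 10.7, 19.5 and 14.2 CPM at 2 h, 12.8, 19.6 and 20.0 CPM at 12 h and 40.2, 30.5 and 26.6 CPM at 48 h, a change at 48 h of 1.25 ± 0.23 (adjusted p = 0.0171). All litters rose, litter 2 from the highest start, and the adjusted p was 0.103 without the block and 0.0585 to 0.0948 on leaving out either of litters 1 and 3 at 0 h. Adamts15 was listed at 0.862, 0.749 and 0.552 CPM at 0 h, 0.813, 1.22 and 1.37 CPM at 2 h, 0.921, 1.14 and 1.06 CPM at 12 h and 5.27, 2.44 and 2.31 CPM at 48 h, a change of 1.27 ± 0.23 (adjusted p = 0.0145), with 0.0418 without the block and 0.0606 to 0.0722 on leaving out either of litters 2 and 3 at 0 h. Adamts1 had a change at 48 h of 0.55 ± 0.22 (adjusted p = 0.162) and Adamts4 one of 0.41 ± 0.19 (adjusted p = 0.217), both short of the threshold. Adamts8 had one of -0.81 ± 0.31 (adjusted p = 0.142), also not called, and was called without litter 3 at 12 h (adjusted p 0.0121).

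The 3 members that fell at 48 h were Adamtsl3, Mmp28 and Adamts10. Adamtsl3 was listed at 4.36, 4.79 and 6.59 CPM at 0 h, 5.65, 3.85 and 5.45 CPM at 2 h, 5.202, 5.45 and 3.55 CPM at 12 h and 2.30, 2.32 and 2.31 CPM at 48 h, a change of -0.90 ± 0.19 (adjusted p = 0.0273). Its 48 h libraries were close together and below all others. Mmp28, an enzyme noted in human testis and skin, was listed at 32.8, 21.9 and 33.7 CPM at 0 h, 34.7, 23.1 and 31.7 CPM at 2 h, 39.8, 26.9 and 31.6 CPM at 12 h and 20.4, 15.2 and 25.1 CPM at 48 h. It fell by 48 h in all 3 litters, with -0.52 ± 0.10 (adjusted p = 0.0233) from 0 h and -0.68 ± 0.10 (adjusted p = 0.0235) from 12 h, although the groups at 0 h and 48 h overlap. Adamts10 was listed at 118, 122.96 and 113 CPM at 0 h, 107, 100.04 and 88.1 CPM at 2 h, 114, 94.9 and 119.7 CPM at 12 h and 90.8, 82.4 and 98.3 CPM at 48 h, a change of -0.38 ± 0.09 (adjusted p = 0.047), and this small change was called in only 6 of 20 alternatives.

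Without the litter block the adjusted p of these 3 was 0.07, 0.354 and 0.149. Single libraries decided them too. For Adamtsl3 the call was lost on leaving out any 1 of litters 2 and 3 at 0 h and litters 1, 2 and 3 at 48 h (adjusted p 0.0519 to 0.131), for Mmp28 any 1 of litters 1, 2 and 3 at 0 h and litters 1 and 2 at 48 h (0.057 to 0.114), and for Adamts10 any 1 of litters 1, 2 and 3 at 0 h, litters 1 and 2 at 2 h, litter 1 at 12 h and litters 1, 2 and 3 at 48 h (0.055 to 0.159). From 12 h to 48 h, 3 of 36 members were called (0.715% of all genes, with 0.434% up and 0.281% down), Adamtsl2 and Mmp11 up and Mmp28 down. Mmp11 there changed by 0.47 ± 0.08 (adjusted p = 0.0336), lost without any 1 of litters 1 and 2 at 0 h, litters 1 and 3 at 2 h, litters 1 and 2 at 12 h and litters 1 and 3 at 48 h (0.0502 to 0.228), and the Mmp28 call was lost without any 1 of litters 1 and 2 at 12 h and litters 1 and 2 at 48 h (0.0556 to 0.161).

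**Figure D4:**
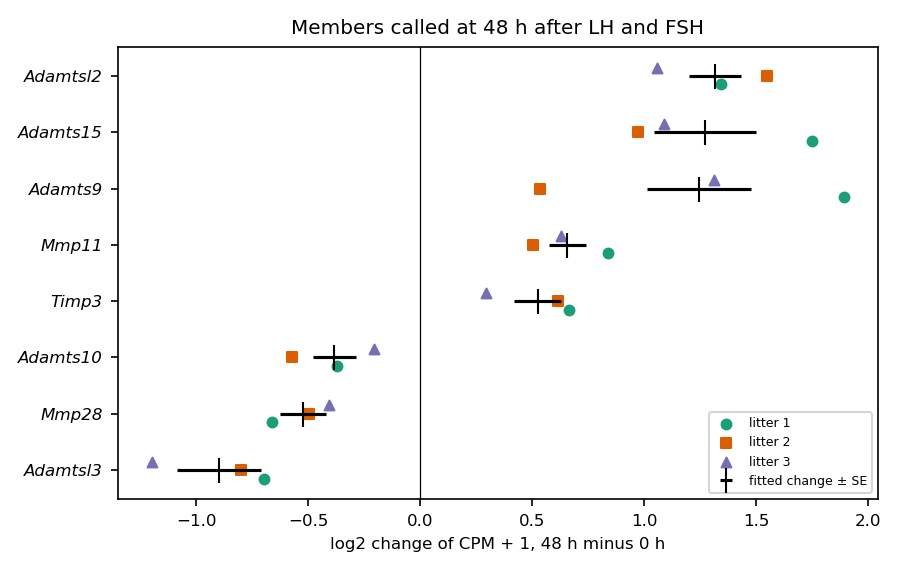
Change of log2(CPM + 1) from 0 h to 48 h after LH and FSH in each litter (coloured points) for the 8 members called, with the fitted change ± SE in black (3 litters). All 3 litters lie on the same side of 0 for each gene, from 1.32 for Adamtsl2 to -0.90 for Adamtsl3.

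The remaining inhibitors and the main gelatinase did not pass the test under hormone. Timp1 was listed at 236, 193 and 299.5 CPM at 0 h, 232, 201 and 288 CPM at 2 h, 225, 208 and 231 CPM at 12 h and 181, 188 and 260.2 CPM at 48 h, a change at 48 h of -0.21 ± 0.09 (adjusted p = 0.191). Timp2 was listed at 852, 668 and 1048 CPM at 0 h, 828, 753 and 1015 CPM at 2 h, 870.4, 744 and 1098 CPM at 12 h and 796, 625 and 1031 CPM at 48 h, a change of -0.07 ± 0.06 (adjusted p = 0.504). Timp4, at 0.0479, 0.125 and 0.118 CPM at 0 h, 0, 0.0974 and 0.137 CPM at 2 h, 0.276, 0.0633 and 0.414 CPM at 12 h and 1.76, 0.713 and 0.828 CPM at 48 h, was too low to be tested. Mmp2 was listed at 979.5, 711 and 1199 CPM at 0 h, 878, 739.6 and 1156 CPM at 2 h, 891, 804 and 1382 CPM at 12 h and 1092, 889 and 1506 CPM at 48 h, a change at 48 h of 0.27 ± 0.07 (adjusted p = 0.0539), which was just past the threshold. Mmp2 was called higher in 6 of 20 alternatives. These were TMM scaling (adjusted p = 0.0489), size factor scaling (0.046), and edgeR (0.0424) and DESeq2 (0.00351) on recovered reads. The others were the fits without litter 1 at 0 h and without litter 3 at 12 h (0.0353 to 0.039). Mmp14, at 489 to 590.2 CPM in the 12 induction libraries, had a change of 0.11 ± 0.06 (adjusted p = 0.3).

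Several members that had risen in culture were not called at any time after hormone. Adamts2 was listed at 389, 254 and 417 CPM at 0 h, 331, 256 and 409 CPM at 2 h, 375, 280.0 and 520.0 CPM at 12 h and 400.4, 263 and 493 CPM at 48 h, a change at 48 h of 0.11 ± 0.07 (adjusted p = 0.36). Mmp19 was listed at 34.1, 34.2 and 40.0 CPM at 0 h, 27.5, 29.5 and 33.3 CPM at 2 h, 32.1, 33.1 and 39.9 CPM at 12 h and 39.9, 35.9 and 40.7 CPM at 48 h, a change of 0.10 ± 0.07 (adjusted p = 0.389). Mmp23 was listed at 114, 63.5 and 148 CPM at 0 h, 128, 71.4 and 145 CPM at 2 h, 129, 97.3 and 129 CPM at 12 h and 79.3, 76.5 and 133 CPM at 48 h, a change of -0.14 ± 0.15 (adjusted p = 0.628). In each of these the 0 h and 48 h libraries overlap. Mmp17 ranged over 29.7 to 51.7 CPM in the 12 induction libraries, with a change at 48 h of 0.01 ± 0.10 (adjusted p = 0.952) and a 2 h to 12 h difference that was not called, except without litter 2 at 2 h (adjusted p = 0.0401), with size factor scaling (adjusted p = 0.0492) and by DESeq2 on recovered reads (adjusted p = 0.00663). Adamts12 ranged over 100.4 to 227 CPM, with -0.22 ± 0.16 (adjusted p = 0.445). Adamtsl1, Adamtsl4 and Adamtsl5 ranged over 7.83 to 15.2 CPM, 9.84 to 19.1 CPM and 7.80 to 12.97 CPM, with none of them called at any time. Adamts1, which had instead fallen in culture, was also not called at any time. Its levels were 67.4, 55.3 and 64.4 CPM at 0 h, 69.3, 39.2 and 99.7 CPM at 2 h, 63.3, 67.9 and 57.0 CPM at 12 h and 114, 76.1 and 87.6 CPM at 48 h. It was higher at 48 h than at 0 h in all 3 litters, but at 2 h the litters spread the most, from litter 2 to litter 3.

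Of 40 tested other genes of matrix proteolysis, 3 were higher and 3 lower at 48 h. Papln rose by 1.27 ± 0.22 (adjusted p = 0.0138), Sulf2, a sulfatase of heparan sulfate, by 0.84 ± 0.11 (adjusted p = 0.00344) and Lrp1, the receptor that clears protease and inhibitor complexes, by 0.55 ± 0.12 (adjusted p = 0.0349). Prss35 changed by -0.53 ± 0.06 (adjusted p = 0.00246), Adam19 by -0.44 ± 0.09 (adjusted p = 0.0245) and Furin, the convertase that activates several members, by -0.24 ± 0.06 (adjusted p = 0.0403). Without the litter block 0 of these were called. Of 24 tested substrates, 2 rose, the laminin chains Lamc1, with 0.52 ± 0.11 (adjusted p = 0.0268), and Lamb1, with 0.26 ± 0.05 (adjusted p = 0.027), and 0 without the block. Of the cell type markers at 48 h, those of Leydig cells, the steroid-making cells that respond to LH, had 2 of 4 tested called, both higher. Cyp17a1 stood at 0.898 ± 1.03 CPM at 0 h and 25.4 ± 14.6 CPM at 48 h, a change of 3.71 ± 0.40 (adjusted p = 0.0021), and Cyp11a1 changed by 1.502 ± 0.32 (adjusted p = 0.0302). The summed level of the 5 measured Leydig markers was 42.3 to 72.6 CPM at 0 h and 85.4 to 150.6 CPM at 48 h. Of these, Insl3 was at 0, although it averaged 5.04 CPM in tissue and 45.6 CPM at day 7 of the baseline experiment. Its counting is therefore in doubt, as it is for the members split between the experiments. Sertoli markers had 1 of 8 higher (Inha), myoid markers 1 of 6 lower (Actg2), macrophage markers 1 of 6 higher (Mrc1) and fibroblast markers 0 of 6 called. The part of these cell types in the 48 h changes was not tested.

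The 3 litters differed in many of these genes. In a test of the 3 litters over all times, added after the values were seen, 18 of the 36 members were called, 50% against 23.3% of all genes. Leaving out 1 library gave 10 to 22, with 10 without litter 2 at 0 h and 11 without litter 2 at 2 h. Of the 18, 17 had their highest mean in litter 3, 10 of them at all 4 times, and 17 their lowest in litter 2. Among all genes called, 65.5% were highest in litter 2 and 21.5% in litter 3. The means of litters 1, 2 and 3 over the 4 times were 960.3, 786 and 1311 CPM (adjusted p = 0.00014) for Mmp2. For Adamts2 they were 374, 263 and 459.8 CPM (adjusted p = 9.12e-05), for Timp2 836, 697 and 1048 CPM (adjusted p = 0.000248) and for Timp1 219, 197 and 269.8 CPM (adjusted p = 0.00662). In each of these genes litter 2 was lowest and litter 3 highest. Adamts19 spread the most, at 3.48, 2.18 and 11.6 CPM (adjusted p = 0.000126), and Mmp28 alone was highest in litter 1, at 31.9, 21.8 and 30.6 CPM (adjusted p = 0.00385).

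Summed fibroblast markers were lowest in litter 2 as well. Their sums were 29544, 18467 and 28898 CPM at 0 h in litters 1, 2 and 3, and 25089, 16419 and 37072 CPM at 48 h, with 0 of 6 markers at 0. Most of these sums was Col1a1 and Col3a1, with means of 15330 and 9851 of 25636 CPM at 0 h. The part of cell composition in the litters' protease levels was not tested. Mmp12, whose product is the macrophage elastase, stood at 2.40, 0.916 and 1.66 CPM at 0 h, 3.07, 0.487 and 2.02 CPM at 2 h, 2.16, 1.14 and 4.79 CPM at 12 h and 5.45, 0.951 and 7.10 CPM at 48 h. At 48 h it was low in litter 2 alone, as were the macrophage markers, whose sums were 119, 22.7 and 136 CPM at 48 h, after 62.7, 21.3 and 26.2 CPM at 0 h, with Cd163 of the 7 markers at 0 in all 48 h libraries. The part of macrophages in Mmp12 was not tested.

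**Figure D5:**
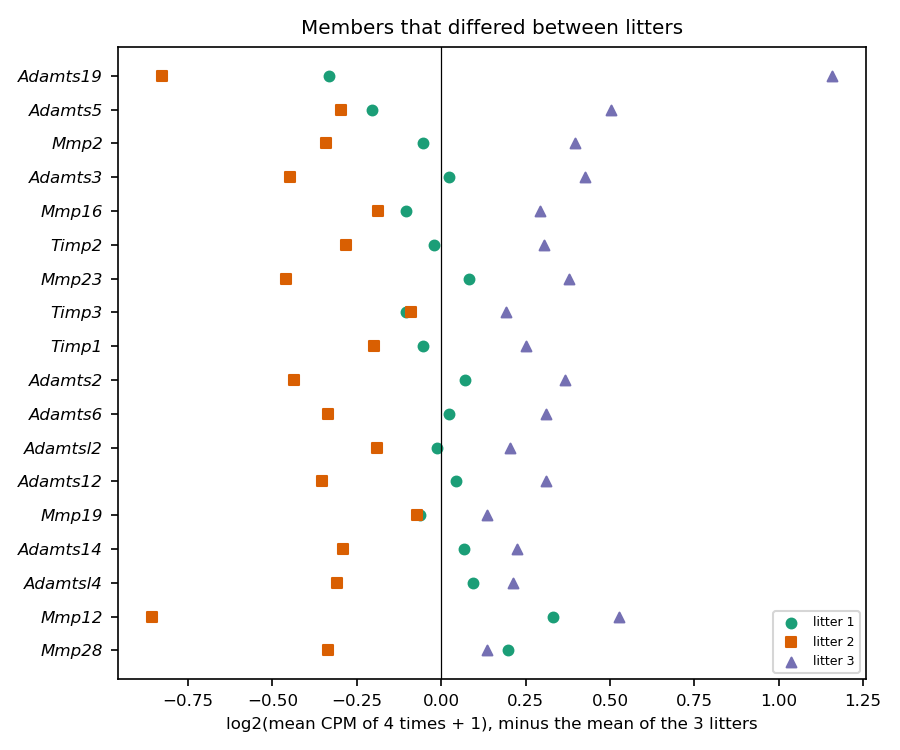
Deviation of each litter from the mean of the 3 litters, on log2 of the mean CPM of the 4 times plus 1, for the 18 members that differed between litters. Litter 3 lies to the right and litter 2 to the left for nearly every gene, with Adamts19 the widest and Mmp28 the exception, highest in litter 1.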

How the data were processed

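Messenger RNA of 24 rat libraries was purified with poly-T beads and sequenced as non-directional libraries, per the labels' protocols. Alignment used STAR and the build mRatBN7.2, per the submitters' processing notes. Its version, the counter and the annotation are not given in the sources used here. CPM values for 21425 genes were deposited by the authors. All were whole multiples of 1 read per library (tolerance 0.01), so reads could be recovered. Reads outside the listed genes made up 2.93 to 3.98% of the baseline and 4.25 to 4.71% of the induction libraries. The labels mention no molecular identifiers, so limits cover counting error only.

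The experiments were fitted apart with limma 3.58.1 (R 4.3.3, trended empirical Bayes) on log2(CPM + 1), each over its 12 libraries and the genes with at least 1 CPM in at least 3 of them, 13055 and 12450 genes. The baseline fit had the group alone and the induction fit had litter as a block. Benjamini-Hochberg adjustment of two-sided p-values ran over all genes in each of 9 comparisons. The litters come from the labels: after group means were removed, 18 within-litter pairs of induction libraries correlated across genes with a median r of 0.482 (-0.0119 to 0.747), 16 of them above 0.1. The 18 baseline pairs that share a number had a median of -0.000715. Alternatives were pseudocounts of 0.5 and 0.1, no filter, TMM and DESeq2 size factor scaling, edgeR 4.0.16 and DESeq2 1.42.0 on recovered reads, the fits with or without the block, and each library left out. The fits were tested on simulated data. The test between litters was added after the data were seen.

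The members and lists were chosen with earlier results of these data known. Named in full were all Timp genes, genes split between the experiments, and called members without overlap whose higher group averaged 5 CPM or more, at most 8 rises and 8 falls per comparison. Of each other role 2 or more examples were named, those beyond 2 after their values were seen, as were Adamts13, Mmp12 and Vcan. Promoters are from RefSeq, build GRCr8, matched by symbol.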

Additional observations from a re-analysis of the deposited data

How the results depend on the processing

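Of the named members' changes, each recomputed under each alternative listed, 0 of 70 called ones reversed direction, while 51 of 133 that were not called changed sign under at least 1 alternative without being called there. Over all of them 3934 recomputed values kept their side of the threshold, 89 lost and 25 gained a call. Leaving out 1 library gave 20 to 24 members called at day 3 against tissue (23 with all libraries), 19 to 27 at day 5 (24), 22 to 27 at day 7 (27), 4 to 7 for day 7 against day 3 (6), 0 at 2 h and 12 h, 2 to 10 at 48 h (8), 0 to 2 from 2 h to 12 h (1), 0 to 5 from 12 h to 48 h (3), 10 to 22 between litters (18, with 10 without litter 2 at 0 h and 11 without litter 2 at 2 h) and 2 to 3 split members (3). For the other proteolysis genes it gave 28 to 33, 22 to 29 and 29 to 35 at days 3, 5 and 7, 5 to 12 for day 7 against day 3 (10), 2 to 7 at 48 h (6), 0 to 1 from 2 h to 12 h (1) and 0 to 3 from 12 h to 48 h (2). For the substrates it gave 17 to 21, 17 to 21 and 19 to 23, then 4 to 9 (5), 0 to 7 at 48 h (2), 0 to 4 from 2 h to 12 h (1) and 0 to 0 from 12 h to 48 h.

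With the replicate block in the baseline fit, where libraries share only a number, 24, 23, 27 and 7 members were called at days 3, 5 and 7 against tissue and at day 7 against day 3. With no replicate block in the induction fit 3 members were called at 48 h and 0 from 2 h to 12 h and from 12 h to 48 h, and 0 proteolysis genes and 0 substrates in each of these intervals. Without a filter the counts were 3 proteolysis genes and 0 substrates at 48 h, 0 members and 0 proteolysis genes from 2 h to 12 h, and 1 member from 12 h to 48 h, with more genes tested. DESeq2 on recovered reads called 10 substrates at day 7 against day 3, 13 proteolysis genes and 8 substrates at 48 h, 4 members and 6 substrates from 2 h to 12 h, and 6 members and 4 proteolysis genes from 12 h to 48 h. From 2 h to 12 h, size factor scaling gave 2 members and 0 proteolysis genes, and TMM scaling and edgeR 0 proteolysis genes. The cause was not tested. Members under the 3-read limit cannot be read as absent.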
